A study of Caenorhabditis elegans with 10 samples.

Results

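The circRNAs of *gld-2* and *mbk-2*, a pair of genes that act in the germ line and the oocyte of *C. elegans*, were examined in 3-day-old adult hermaphrodites of the wild-type and of a *nova-1* mutant, collected as whole animals. The deposited table counts reads over back-splice junctions, which form when a splice donor is linked backwards to an acceptor that precedes it in the gene, so that the exons between them become a closed RNA circle. Its rows were assigned to host genes through the study's list of detected circRNAs, which linked 138 of the 141 loci. This gave 2 loci of 141, cel_circ_0000075 of *gld-2* and cel_circ_0000565 of *mbk-2*, with a single locus for each gene in the table. The table holds fewer loci than the circRNAs that the study reports as detected. Ranks and shares given below therefore refer to its 141 loci and not to all circRNAs of the animals. The *gld-2* row had the same coordinates in both sources, whereas the *mbk-2* row was matched by nearness and span. The pair was proposed with the genotype difference in these data already known, so that difference is described here and is not tested for either circRNA.

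There were 5 biological replicates of each genotype. Wild-type was the N2 strain and the mutant was a single outcrossed strain, *nova-1(tm6146)*, that carries a deletion in the gene for the NOVA family RNA-binding protein. By the study's methods, both genotypes were grown at the same temperature on *E. coli* OP50 and were moved as L4 larvae to plates with 5-fluorodeoxyuridine, an inhibitor of DNA synthesis that prevents progeny. Over the 141 loci, the wild-type samples had totals of 7955 to 15014 counts and the mutants 8514 to 9437, and the highest total belonged to wild-type replicate 1. None of the linked loci belonged to *nova-1*, so the genotypes were not checked from the counts. The samples are whole animals and the counts cover circular junctions only, so the tissue that produced each circRNA was not assigned.

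GLD-2 is the catalytic subunit of a cytoplasmic poly(A) polymerase. It lengthens the poly(A) tails of stored mRNAs in the germ line, where it promotes entry into meiosis and gametogenesis together with RNA-binding partners such as GLD-3 and RNP-8. MBK-2 is a kinase of the DYRK family that is held at the oocyte cortex by EGG-3 and its relatives. It is released as the oocyte becomes an embryo, and it then phosphorylates maternal proteins such as MEI-1 and OMA-1, which marks them for destruction. A back-splice junction count measures the circular product of a gene and not its mRNA or its protein.

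The *mbk-2* circRNA is the member for which the study designed oligonucleotides. Their sequences are given here because they define the circular and the linear RT-qPCR assay of the study at this gene. In the count table, a circular product is instead defined by its predicted junction. Each is written in the direction from 5′ to 3′, and capitals mark the 6 bases that end the forward primer of the circular assay and begin the forward primer of the linear assay. The gene lies on chromosome IV.
*mbk-2* circular, forward: ggatacggtagctgCACAAG
*mbk-2* circular, reverse: ccactcggaaactcgtatga
*mbk-2* linear, forward: CACAAGcaaccggactacc
*mbk-2* linear, reverse: atccaccgagacgccgtt
The circular pair is outward-facing by the study's design and is meant to amplify across a back-splice junction. The linear pair is meant to detect host transcripts that were not circularized. The primers were not mapped to the locus here. The amplification data were not analysed here.

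By the annotation, both junctions enclose coding exons, which lie between long introns in most transcripts that contain them. The exons of each circle were inferred from the annotated exons between the junction ends. Junction counts do not show the rest of a circle, and whether the introns inside it are removed was not tested. In the WBcel235 annotation, *gld-2* (WBGene00001596) lies on the plus strand of chromosome I from 6369748 to 6386194, and the junction is listed in the table from 6377545 to 6378706. Both ends of the junction were 2 nt past exon edges, and with that offset the circle covers 3 exons, from 6377543 to 6377679, from 6377729 to 6377841 and from 6378512 to 6378704. These are 137, 113 and 193 nt long, 443 nt in all. *mbk-2* (WBGene00003150) lies on the plus strand of chromosome IV from 13009158 to 13035961, and its junction is listed from 13023803 to 13024587, which is 31 nt before exon edges at both ends. The 2 exons, from 13023834 to 13024054 (221 nt) and from 13024465 to 13024618 (154 nt), add up to 375 nt. That length is a whole number of codons for *mbk-2* and leaves a remainder of 2 nt for *gld-2*. Whole-codon lengths were found at 37 of the 114 loci whose ends matched exon edges of their host gene with the same offset at both ends. Other loci were offset too. On chromosome IV the listed ends were 0 nt before exon edges at *lem-4*, 32 nt at a *tbc-9* locus and 39 nt at *ntl-11*. Why the positions are offset, and whether the scaffolds were built on the listed or on the annotated positions, was not tested.

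In *mbk-2*, the circularized exons belong to 4 of 14 annotated transcripts, the long forms that begin at the far 5′ end of the gene. They are exons 5 and 6 in F49E11.1b.1 and F49E11.1c.1 and exons 6 and 7 in F49E11.1g.1 and F49E11.1k.1. The other 10 transcripts begin downstream of the first base of the circle. In *gld-2*, 4 of 6 transcripts contain all 3 exons, at exons 10 to 12 in the longest form, ZC308.1a.1, and ZC308.1f.1 begins inside the circle.

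**Figure D1:**
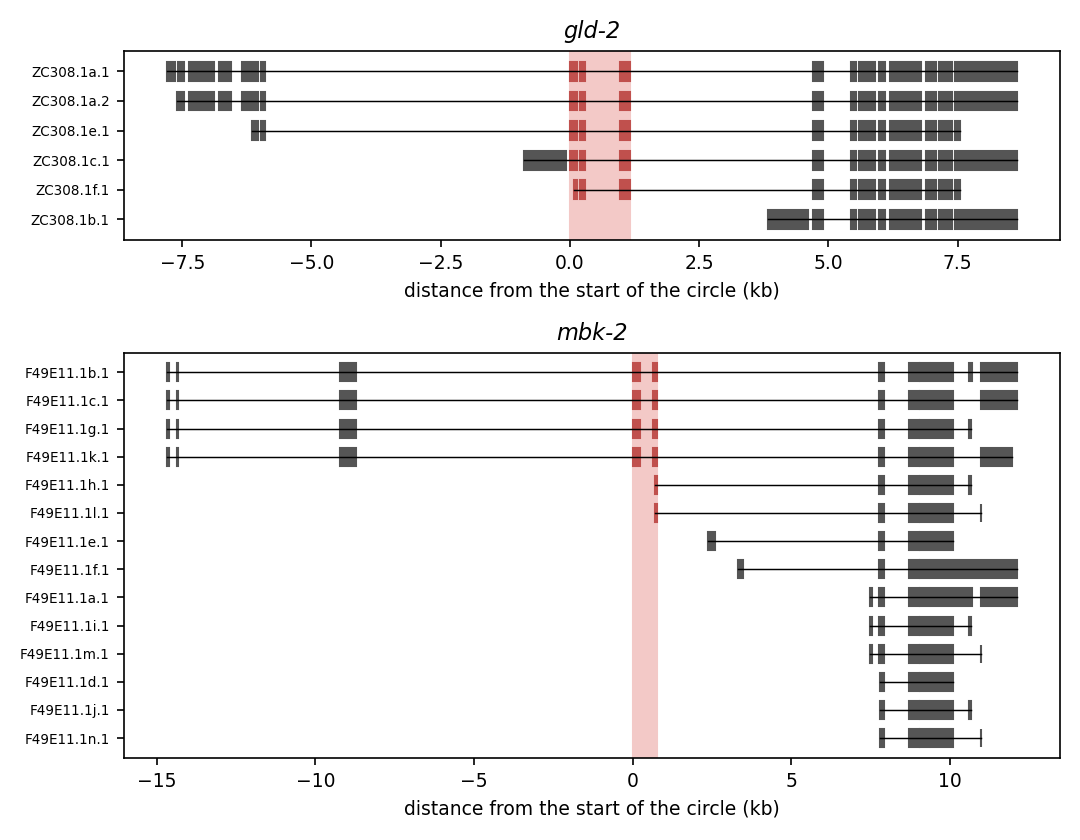
Annotated transcripts of *gld-2* and *mbk-2*, drawn as exons (boxes) and introns (lines) against the distance in kb from the start of each circle, with the circularized stretch shaded and its exons in red. The circle lies within 4 of the 6 *gld-2* transcripts and 4 of the 14 *mbk-2* transcripts. The introns on either side are long in both genes, except for an upstream intron of 76 nt in the *gld-2* transcript ZC308.1c.1.

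The *mbk-2* exons lie between introns of 8718 nt upstream and 6975 nt downstream. Those values exceed the length of 99.8% and 99.6% of the 109516 annotated introns of protein-coding genes, whose median is 68 nt. The *gld-2* exons are followed by an intron of 3541 nt and preceded by one of 5898 nt in 3 transcripts. In ZC308.1c.1, which starts closer to the circle, the preceding intron is only 76 nt. Long flanking introns were frequent among the circRNA loci as a whole. Taking the longest annotated intron on each side, both exceeded 1000 nt at 55 of 110 loci, and 7.7% of all annotated introns are that long. Within these loci, 10 had a longer upstream intron than *mbk-2* and 6 of 114 a longer downstream one, and for *gld-2* these numbers were 14 of 110 and 15 of 114. This is a description of the annotation and carries no test.

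**Figure D2:**
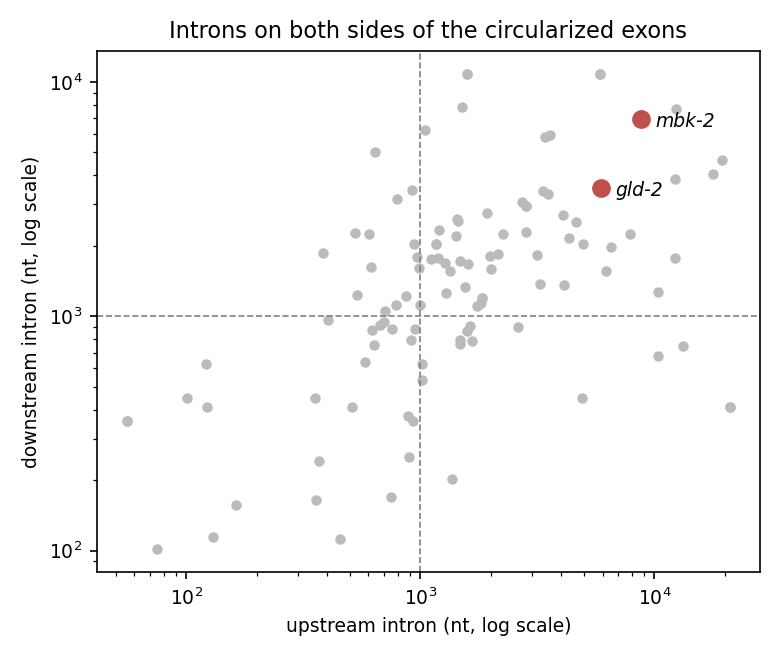
Length of the longest annotated intron upstream (x axis) and downstream (y axis) of the circularized exons, in nt on log scales, for the 110 loci with both, with dashed lines at 1000 nt. Both members (red) sit in the upper right, *mbk-2* at 8718 and 6975 nt and *gld-2* at 5898 and 3541 nt.

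The *gld-2* circRNA was among the more abundant junctions of the table in wild-type animals. Its raw counts in wild-type replicates 1 to 5 were 137, 85, 66, 93 and 116. After TMM normalization, which scales every sample to a common library of 9421 counts, these became 123, 84.6, 76.9, 111 and 120 normalized counts. The mean was 103 ± 21.1 normalized counts (SD, n = 5), the 8th highest of the 141 loci, against a median of 22.9 over all loci. Its neighbours in this order were a *crh-1* junction at 121 ± 42.0 and the *gcn-1* junction at 94.7 ± 26.0, and these differences are smaller than the spread between replicates. All scaffolds were 200 nt long, so counts of different loci refer to the same length.

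The *mbk-2* circRNA stood lower in wild-type. Raw counts in replicates 1 to 5 were 27, 72, 65, 69 and 89, and normalized counts were 24.2, 71.7, 75.7, 82.3 and 92.3. Replicate 1 had the lowest value although its library was the largest, and the other 4 lay close together. The mean was 69.2 ± 26.3 normalized counts (SD, n = 5), the 15th highest locus, and 80.5 ± 8.98 (SD, n = 4) without replicate 1. Neither neighbour in the order, *Y53F4B.39* at 72.5 ± 13.6 and a *Y105E8A.25* junction at 69.1 ± 30.7, differed from it beyond the spread between replicates.

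In *nova-1* mutants the counts of the *gld-2* circRNA were 304, 280, 313, 201 and 207 in replicates 1 to 5, or 249, 279, 279, 210 and 226 normalized counts. Replicates 4 and 5 were the lowest of the mutants, and both were still above every wild-type replicate. The mean was 249 ± 31.3 normalized counts (SD, n = 5), which was 2.41 times the wild-type mean. The fitted log_2_FC of *nova-1* over wild-type was 1.27 (standard error 0.24, 95% interval 0.78 to 1.76, edgeR), the 9th highest of the 141 loci. In whole animals, more cells that make a circRNA and more of it in each cell cannot be told apart.

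For *mbk-2*, the mutant counts were 280, 352, 298, 218 and 277, or 229, 351, 266, 227 and 302 normalized counts. The lowest mutant replicate, at 227, was 2.46 times the highest wild-type replicate, at 92.3, whereas for *gld-2* this ratio was 1.70. The mean of 275 ± 52.6 normalized counts (SD, n = 5) was 3.97 times that of wild-type. The fitted log_2_FC was 1.99 (standard error 0.29, 95% interval 1.41 to 2.58, edgeR), the 2nd highest of all loci, and without wild-type replicate 1 it was 1.77, the 3rd highest. In *nova-1* mutants the *mbk-2* circRNA was 5th in abundance and that of *gld-2* was 7th, with the *Y22D7AR.6* junction between them at 266 ± 59.1, and these 3 levels did not differ beyond their spread.

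**Figure D3:**
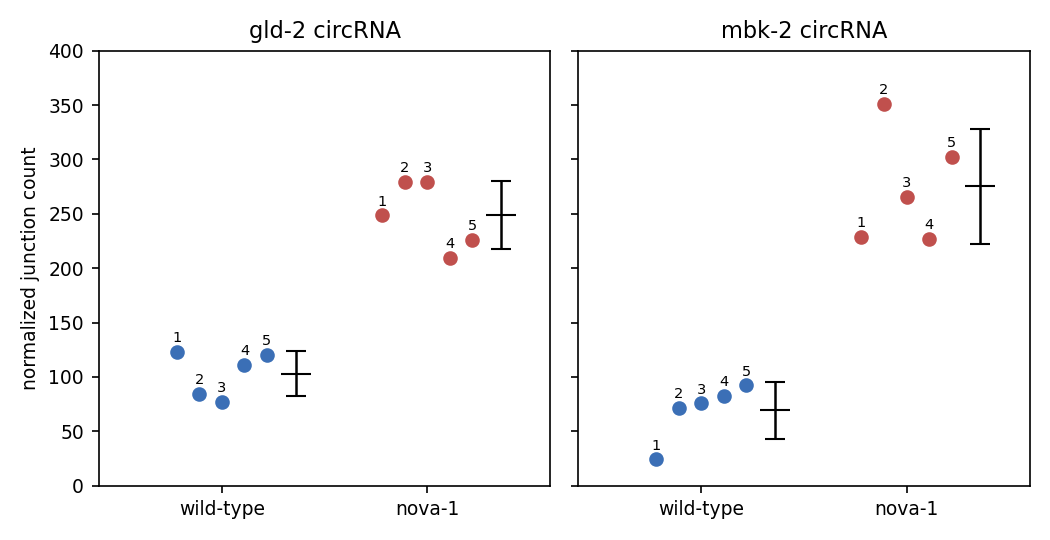
Normalized junction counts (y axis) of the *gld-2* and *mbk-2* circRNAs in the 5 wild-type (blue) and 5 *nova-1* (red) samples, each point labelled with its replicate number, with the mean and SD beside it. The genotypes do not overlap for either circRNA, and wild-type replicate 1 is the lowest point for *mbk-2* at 24.2.

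By an unadjusted criterion, a change of more than 0.5 in log_2_FC in either direction and an edgeR *P* under 0.05 without correction, both circRNAs were called, as were 57 of the 141 loci (40.4%). In the direction of an increase in the mutants, 30 loci (21.3%) passed it. With Benjamini–Hochberg adjusted *P* under 0.05 in the same edgeR fit, both again passed, as did 40 loci (28.4%), 22 of them (15.6%) higher and 18 (12.8%) lower in the mutants. At 21 loci (14.9%) every *nova-1* replicate was above every wild-type replicate, both members among them, and at 14 (9.93%) every one was below. Because the members were chosen with this contrast in view, these counts are not read as evidence.

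The genotypes were in the same order on other scales. Per 1000000 sequenced reads, with read numbers from the study's read statistics, wild-type had 1.06 ± 0.24 counts of the *gld-2* junction and the mutants had 2.51 ± 0.44 (SD, n = 5 each). For the *mbk-2* junction these were 0.70 ± 0.25 and 2.75 ± 0.49. As a share of all junction counts, *gld-2* took 0.768% to 1.43% in the wild-type replicates and 2.25% to 3.34% in the mutants. The share of *mbk-2* was 0.18% in wild-type replicate 1 (27 counts, 95% Wilson interval 0.124 to 0.262), 0.70% to 1.10% in the other wild-type replicates and 2.44% to 4.13% in the mutants. These intervals cover counting error only. Together the pair made up 1.74% ± 0.55 of junction counts in wild-type and 6.04% ± 1.05 in *nova-1* mutants (SD, n = 5 each). Shares depend on the rest of the library, in which the 3 largest loci held 46.0% to 55.8% of the wild-type counts and 34.9% to 46.2% of the mutant counts. Among the mutants, replicates 4 and 5 had both the highest share in those loci, 46.2% and 45.8%, and the lowest *gld-2* values, and the part of the former in the latter was not tested.

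**Figure D4:**
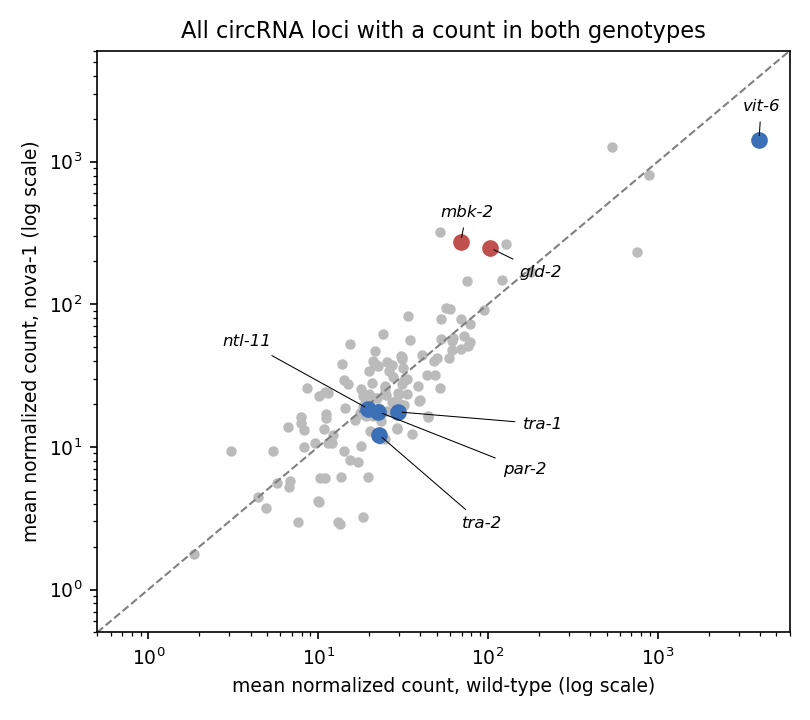
Mean normalized count in wild-type (x axis) against *nova-1* mutants (y axis) on log scales for the 140 loci with a count in both genotypes. The line of equality is dashed, the members are in red, and the other loci of the gene lists described below are in blue. *mbk-2* (69.2 and 275) and *gld-2* (103 and 249) lie above the line, and *vit-6* (3956 and 1426) lies below it.

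Over all 5 replicates, the spread was larger than counting error for both circRNAs in both genotypes. For *mbk-2* in wild-type the spread was smaller without replicate 1. The coefficient of variation of *gld-2* was 20.4% in wild-type and 12.6% in the mutants, where counting alone gives 10.1% and 6.22%. For *mbk-2* it was 38.0% and 19.1%, against 12.5% and 5.95% from counting. The wild-type value was 11.2% without replicate 1, and the counting error of the remaining replicates was not computed. Among loci with mean normalized counts of 50 to 400, the median coefficient of variation was 28.7% over 23 loci in wild-type and 19.3% over 24 loci in the mutants, so *gld-2* lay below the median in both genotypes. *mbk-2* was above it in wild-type, where 17 of the 23 loci had a smaller value, and close to it in the mutants, where 11 of 24 did.

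The balance between the counts of the circles can be compared inside each sample, where library size cancels out. A difference in how well each junction is detected does not cancel, so equal counts need not mean equal numbers of molecules. In wild-type the *mbk-2* count was below the *gld-2* count in 5 of 5 replicates, with log_2_ ratios of -2.32, -0.24, -0.02, -0.43 and -0.38 in replicates 1 to 5. The mean was -0.68 ± 0.93 (SD, n = 5; two-sided exact sign-flip permutation test, p = 0.0625, the smallest that 5 replicates allow). Replicate 1 set most of that mean and its spread, and without it the mean log_2_ ratio was -0.27 ± 0.18 (SD, n = 4; exact p = 0.125, the smallest that 4 allow). In *nova-1* mutants the log_2_ ratios were -0.12, 0.33, -0.07, 0.12 and 0.42, positive in 3 of 5 replicates. Their mean of 0.14 ± 0.24 (SD, n = 5) was not distinguishable from equal counts (two-sided exact sign-flip permutation test, p = 0.375). *mbk-2* thus supplied 39.6% ± 13.2 of the counts of the pair in wild-type and 52.3% ± 4.10 in the mutants (SD, n = 5 each). In wild-type this share was 16.5% in replicate 1 and 42.6% to 49.6% in the other replicates. The difference between genotypes was not tested, and it restates the fold changes on which the members were chosen.

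**Figure D5:**
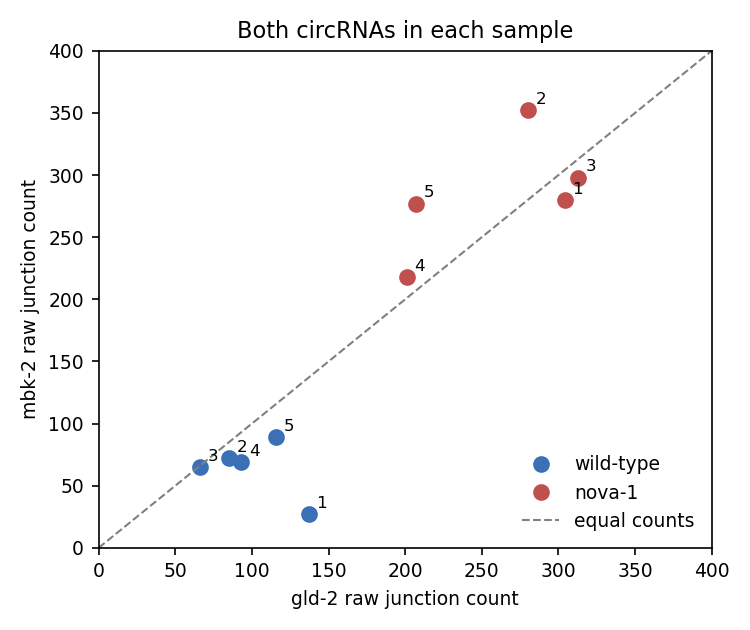
Raw junction count of *gld-2* (x axis) against *mbk-2* (y axis) in each of the 10 samples, labelled with replicate numbers, with the dashed line at equal counts. The 5 wild-type samples lie below the line, replicate 1 farthest from it (137 and 27), and the 5 *nova-1* samples lie on both sides of it.

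Wild-type replicate 1 stood at opposite ends of its group for the members. It had the highest *gld-2* value of the wild-type replicates, 123 normalized counts against 76.9 to 120 in the others, and the lowest *mbk-2* value. Over all 141 loci, this replicate was the lowest wild-type sample at 52 (36.9%) and the highest at 45 (31.9%). It thus stood at an end of its group at many loci besides the members. Any replicate stands at an end at some loci, and these shares were not computed for the other replicates. Its TMM factor was 0.70, against 0.92 to 1.12 in the other wild-type replicates. Sorting loci by the root mean square difference from a member in log_2_ normalized counts over the 10 samples, each centred on its own mean, gave different loci for each member. The closest to *mbk-2* among 121 loci were *zip-2* (difference 0.44), *K11H12.5* (0.51) and a *pqn-41* junction (0.55). Each of these was also lowest in wild-type replicate 1, at 127 normalized counts for *zip-2* against 547 to 728 in the other 4, 1.80 against 13.5 to 24.5 for *K11H12.5* and 19.7 against 24.5 to 53.7 for *pqn-41*. The closest to *gld-2* were *Y53C10A.5* (0.27), a *fars-2* junction (0.33) and *Y22D7AR.6* (0.38), none of which was lowest in that replicate. *mbk-2* itself was only the 40th closest to *gld-2*, and *gld-2* was the 12th closest to *mbk-2* (0.73). Likeness over these samples includes the genotype difference that the members were chosen on, and nothing about shared control follows from it. It also includes wild-type replicate 1 itself. Sorting by likeness to *mbk-2* therefore favours loci that are low in that replicate, and their low values there are not a separate observation.

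Other genes of the maternal and germline programme were sparse in the table. Lists of 88 genes, drawn up from the textbook roles of poly(A) tail control, the oocyte-to-embryo transition, germline sex determination, yolk and the DYRK family, had loci for 7 genes, with 1 locus each. Besides the members these were *ntl-11*, *par-2*, *tra-1*, *tra-2* and *vit-6*. By the unadjusted criterion, none of the other 5 loci was higher in *nova-1* mutants and 3 were lower, where 21.3% of all loci were higher and 19.1% lower by the same criterion. The 5 loci had a median log_2_FC of -0.75, against -0.10 over all 141 loci. By adjusted *P*, only *vit-6* passed among these 5. The lists were drawn up with earlier results of these data known, so these counts and medians are a description. No shift of germline genes is read from them.

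The junction closest to *gld-2* in function was that of *ntl-11*, which encodes a subunit of the CCR4-NOT deadenylase, the complex that shortens poly(A) tails. It had 7 to 26 raw counts in wild-type and 9 to 38 in the mutants, with 19.8 ± 9.47 and 18.5 ± 7.99 normalized counts (SD, n = 5 each). The groups overlapped, and the log_2_FC was -0.06 (standard error 0.38, adjusted *P* = 0.921, edgeR). Its sign changed in 4 of 18 alternative fits. Closest to *mbk-2* in function was *par-2*, which encodes a polarity protein of the posterior cortex of the zygote. Its 22.6 ± 6.37 normalized counts in wild-type and 17.6 ± 12.3 in the mutants (SD, n = 5 each) also overlapped (log_2_FC -0.34, standard error 0.39, adjusted *P* = 0.572, edgeR). Over the alternative fits its log_2_FC ran from -0.75 without *nova-1* replicate 3 to -0.06 with column totals, and none of them called it.

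The *tra-1* and *tra-2* junctions come from sex determination genes, a zinc-finger factor and a membrane receptor that promote female fates. The *tra-2* junction had 12, 29, 22, 14 and 31 raw counts in wild-type and 14, 6, 16, 7 and 20 in the mutants, and the groups overlapped. In normalized counts it was 22.8 ± 8.86 and 12.2 ± 6.33 (SD, n = 5 each). The log_2_FC was -0.90 (standard error 0.39, adjusted *P* = 0.0786, edgeR). The *tra-1* junction had 29.6 ± 7.44 and 17.6 ± 4.83 normalized counts (SD, n = 5 each). Its log_2_FC was -0.75 (standard error 0.31, adjusted *P* = 0.0725, edgeR). Both passed the unadjusted criterion and neither the adjusted one. For *tra-2* the unadjusted call was lost without wild-type replicate 2, 3 or 5 (log_2_FC -0.80, -0.86 and -0.75) or without *nova-1* replicate 2 or 4 (-0.75 and -0.77), and the adjusted one was gained without wild-type replicate 1 (-1.08) or *nova-1* replicate 5 (-1.20). For *tra-1* it was lost without wild-type replicate 2 or 5 (-0.69 and -0.65) or *nova-1* replicate 3 (-0.65), and the adjusted one was gained without wild-type replicate 1 (-0.88) or *nova-1* replicate 5 (-0.90). With all samples, *tra-1* also passed the adjusted criterion in DESeq2 (log_2_FC -0.79, adjusted *P* = 0.0498) and in edgeR after a filter on low counts (-0.83, adjusted *P* = 0.0415). With column totals in place of TMM, neither passed (-0.73 for *tra-2* and -0.56 for *tra-1*).

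The *vit-6* junction, from a yolk protein gene whose product is taken up by oocytes, had 2338 to 6604 raw counts in wild-type and 1192 to 1761 in the mutants. It fell from 3956 ± 1283 to 1426 ± 389 normalized counts (SD, n = 5 each), and the groups did not overlap. In the edgeR fit this was a log_2_FC of -1.47 with a standard error of 0.38 and an adjusted *P* of 0.00483. Its ends did not match exon edges of the gene with a single offset.

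Under the other scalings tried, *mbk-2* remained 2nd in log_2_FC and *gld-2* was 9th or 10th. With a replicate left out, *gld-2* ranged from 6th (without wild-type replicate 1) to 13th (without wild-type replicate 3). With column totals and no TMM, the median log_2_FC over all loci rose by 0.23, from -0.10 to 0.14, and of the called loci 35 were higher and 16 lower in the mutants (68.6% higher) against 30 and 27 (52.6% higher) with TMM. Relative to that median, the *gld-2* log_2_FC was 1.36 under both scalings, and that of *mbk-2* was 2.09 with TMM and 2.01 with column totals.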

How the data were processed

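Total RNA of 10 whole-animal samples was sequenced as paired-end reads. The authors used HISAT2 v2.2.1 to align reads to ce11 (WBcel235), BWA v0.7.18 for the reads left unmapped, and then CIRI2 v2.0.6 to predict loci, dropping those under 12 junction reads. They mapped all reads with Bowtie2 v2.5.4 to scaffolds of 200 nt around each junction, removed duplicates with Picard and deposited raw featureCounts v2.0.1 counts, not normalized or pooled. The other measured column in the deposited table gives the scaffold length. Columns were matched to samples by genotype and replicate number.

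Loci were linked to host genes by identical coordinates (112) or by a single row within 150 nt and 1 nt of span (26). Exon edges came from the Ensembl WBcel235 annotation. Counts of every locus were fitted with edgeR v4.0.16 (TMM, quasi-likelihood *F*-test, all 10 samples, no covariate) in R v4.3.3, and standard errors are the absolute log_2_FC over the square root of *F*. The fit was also run on simulated counts with a common dispersion and no outlying replicate. The outcome is not reported here, and that setting cannot show how the fit handles a replicate that stands apart. Within-sample ratios used a pseudocount of 0.5, and exact sign-flip tests. Named loci are the members, the loci of the gene lists and the 3 loci closest to each member among those with a mean of at least 10 normalized counts. *crh-1*, *gcn-1*, *Y53F4B.39* and *Y105E8A.25* were named after their values were seen, as neighbours in level. Members and lists were chosen with earlier results of these data known. Totals of 7955 to 15014 counts leave loci with few counts imprecise. Alternatives were RLE factors, column totals, library sizes without the 3 largest loci, sequenced reads as library size, DESeq2 v1.42.0, a low-count filter, robust dispersion, a replicate block, other pseudocounts and leaving out each replicate.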

Additional observations from a re-analysis of the deposited data

Results flagged for a closer look

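In wild-type, the log_2_ ratio of *mbk-2* to *gld-2* counts in replicate 1, -2.32 (27 against 137 counts), stood apart from -0.43 to -0.02 in the other 4 replicates, with a gap of 0.823 of the group's range, where more than 0.71 is taken as apart. Of 28 groups of 5 samples examined, this was the only one, and chance gives about 1.4. The normalized count of *mbk-2* in the same replicate, 24.2 against 71.7 to 92.3, came close at 0.698 of the range. The cause was not tested.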

How the results depend on the processing

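The log_2_FC of *gld-2* ran from 1.15 to 1.498 over 8 alternative fits of all samples and from 1.18 to 1.34 over the 10 fits that each left out 1 replicate. That of *mbk-2* ran from 1.92 to 2.15 and from 1.77 to 2.12. These ranges describe values on which the members were chosen. With the replicate number as a block, the log_2_FC was 1.28 and 2.08, and 53 loci were called by the unadjusted criterion. Same-numbered samples did not deviate together (correlations of -0.15 to 0.20, and 1 of 5 wild-type samples correlated best with its own number), so the numbers were not taken as pairs. Under the block *vit-6* no longer passed the adjusted threshold (adjusted *P* = 0.069, edgeR). Of the 7 loci in the gene lists, 5 were called by the unadjusted criterion, where 40.4% of all loci were. Both members, which were chosen on this contrast, are among them and were higher in the mutants. Without the members 3 of 5 were called, all lower in the mutants. Of the 7, 3 were called with column totals and 3 by adjusted *P*, where 28.4% of all loci passed, and 3 to 5 when a replicate was left out. Without the members, 1 of 5 passed by adjusted *P*. The number of called loci was 40 to 57 under other settings and 48 to 58 with a replicate left out. The wild-type log_2_ ratio of *mbk-2* to *gld-2* was -0.84 to -0.27 with a replicate left out and -0.68 to -0.66 with pseudocounts of 0 or 2, and in the mutants it was 0.06 to 0.20 and 0.13 to 0.14. The cause of these changes was not tested. With 27 to 137 counts per wild-type sample at the members and 5 to 40 per sample at *tra-1*, *tra-2*, *par-2* and *ntl-11*, relative counting error is larger at the latter loci, and how far depth limits the comparisons was not tested.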
